A study of Mus musculus with 14 samples.

Results

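Killer innate-like T cells of the αβ lineage that carry NK1.1 (NK1.1+ ILTCk) were compared with conventional T cells carrying PD-1 (PD1+ Tconv) by bulk RNA sequencing, over every gene of the deposited count table that holds both groups. The 4 libraries used, 2 per group, are among 10 bulk libraries and 14 samples of the series. Of 50508 mouse genes in the table, 18091 passed the filter on low counts and were tested. The remaining group of the table, NK1.1- ILTCk (2 libraries), entered the fit only to share its estimate of the spread.

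All 4 libraries are labelled retrogenic, a design in which hematopoietic stem cells carrying a transferred T cell receptor gene rebuild the immune system of a host. Which receptor, which tumour model, and the strain and age of the mice are not given for them in the sources used here. Per the labels' protocols, cells were taken from digested tumours and sorted as CD45+ and TCRβ+ cells negative for TCRγδ and CD4 and positive for CD8α. NK1.1+ ILTCk were PD-1- NK1.1+ in this gate and PD1+ Tconv were PD-1+ NK1.1-. The characteristics call the cell type of the ILTCk libraries ILTCkP, a name used elsewhere in the series for thymic progenitors, while their titles say ILTCk, and the groups here go by title. The libraries are called biological replicates, but separate animals are not stated, so p-values measure the spread among these samples alone, and that spread may be technical.

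Conventional CD8 T cells recognise foreign or tumour peptides through an αβ T cell receptor (TCR) and a CD8αβ coreceptor, and after lasting stimulation they carry PD-1, an inhibitory receptor. ILTCk also carry an αβ TCR but are selected in the thymus by self antigen, and resemble natural killer (NK) cells and the innate-like lymphocytes of the gut lining in the receptors, adaptors and granzymes they use. FcεR1γ (Fcer1g) and DAP12 (Tyrobp) are adaptors with ITAM motifs that couple NK and Fc receptors to kinases of the Syk family. Macrophages use the same adaptors, so their transcripts cannot be assigned to a T cell or to a macrophage from bulk counts alone.

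The libraries differed in depth and in the RNA of other cells. Total counts were 19837739 and 25058242 in NK1.1+ ILTCk replicates 1 and 2 and 28097845 and 16530085 in PD1+ Tconv replicates 1 and 2. The genes Cd3e, Cd3d, Cd3g, Trac, Trbc1 and Trbc2, which encode chains of the TCR complex, together gave 64904, 12684, 139917 and 37095 of these counts in the same order. NK1.1+ ILTCk replicate 2 thus held the fewest TCR reads at the second greatest depth. Genes of secretory glands (20 listed) took 0.391 and 10.7% of counts in NK1.1+ ILTCk against 0.193 and 23.2% in PD1+ Tconv, so that replicate 2 was the high library in both groups. Macrophage and monocyte genes (20 listed) took 1.16 and 2.86% in NK1.1+ ILTCk against 0.0288 and 0.116% in PD1+ Tconv, and dendritic cell and MHC class II genes (11 listed) took 1.68 and 0.828% against 0.0506 and 0.0783%. Both of these groups of transcripts moved with the comparison itself. None of the 20 macrophage genes was at 0 counts in both libraries of either group, although the gate took TCRβ+ cells.

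**Figure D1:**
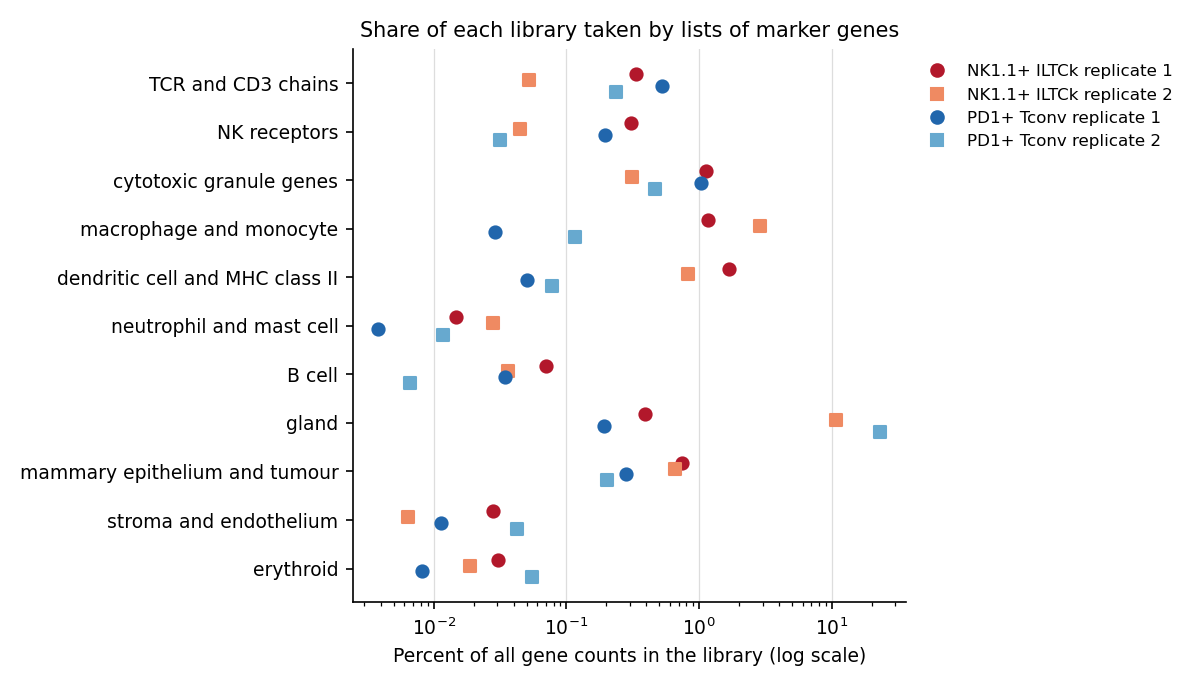
Percent of all gene counts (x axis, log scale) taken by each gene list (y axis) in the 4 libraries; circles are replicate 1, squares replicate 2, red and orange NK1.1+ ILTCk, blue shades PD1+ Tconv. Macrophage genes lie at 1.16 and 2.86% in NK1.1+ ILTCk against 0.0288 and 0.116% in PD1+ Tconv, and gland genes are high in replicate 2 of both groups.

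Levels are therefore given on 2 scales. CPM is a gene's count relative to all counts of its library, scaled by TMM, which assumes that most genes do not differ. The other scale is the number of reads of a gene per 1000 reads of the 6 TCR genes, which relates a transcript to the T cells in a library but assumes that both kinds of cell carry the same amount of TCR RNA. In bulk samples fewer cells of a type and less RNA per cell cannot be told apart. The 6 TCR genes together stood at 2900 and 572 CPM in NK1.1+ ILTCk against 4457 and 3007 in PD1+ Tconv. A gene higher without overlap in CPM was therefore always higher per TCR read, and one lower per TCR read always lower in CPM. Absence of overlap on both scales is thus no second check: CPM decides for higher genes and TCR reads for lower genes. Log2 fold changes (NK1.1+ ILTCk minus PD1+ Tconv) are given ± standard error.

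With TMM scaling, edgeR's quasi-likelihood test called 0 genes higher and 0 lower (0.0% of those tested in each direction) at an adjusted p under 0.05, with 2590 genes at an unadjusted p under 0.05. On the same counts limma-voom called 0 higher and 3 lower (Pdcd1, Cd8b1 and Gzmk), and DESeq2 called 663 higher (3.66%) and 605 lower (3.34%). With scaling to the TCR reads, edgeR called 628 genes higher (3.47%) and 24 lower (0.133%), and DESeq2 2269 higher (12.5%) and 43 lower (0.238%). That scaling moved the median log2 fold change of all tested genes from -0.04 to 1.84, so fold changes on it are read against 1.84. The p-values with TCR scaling test a difference from 0, and a difference from 1.84 was not tested for any gene. Without NK1.1+ ILTCk replicate 2 the median was 0.21, and edgeR called 0 genes in either direction with TCR scaling. It called 9535 higher and 38 lower without NK1.1+ ILTCk replicate 1, and 0 in either direction without either PD1+ Tconv library, where the lone library is assumed to vary like the other groups. Adjusted p-values below are from edgeR's quasi-likelihood test with Benjamini-Hochberg adjustment over all tested genes, unless DESeq2 is named. Fold changes printed beside a p of the fit of thymic-expressed genes are those over all genes with TMM.

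Another fit was limited to the 8402 tested genes whose mean in the series' thymic T cell libraries reached 10 CPM. Of the marker lists it kept 1 of 20 macrophage genes (Lyz2), 4 of 11 MHC class II and dendritic cell genes and 0 of 20 gland genes. In it edgeR called 2 genes higher (0.0238%), Tyrobp and Lyn, and 15 lower (0.179%). The 15 were Pdcd1, Cd8b1, Cd28, Icos, Slamf1, Sh2d1a, Nr4a2, Smad7, Rab27a, Trdc, Rock1, Fam169b, Trim12c, Trip11 and Gm8369. All 15 kept their sign without any 1 of the 4 libraries, and all were called without NK1.1+ ILTCk replicate 1, but 0 were called without any of the other 3 libraries.

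The genes of the sort followed the gates. Klrb1c (chromosome 6, 128778485 to 128789215, GRCm38), which encodes the NK1.1 antigen NKR-P1C, stood at 309 and 68.6 CPM in NK1.1+ ILTCk against 39.5 and 2.35 in PD1+ Tconv. Per 1000 TCR reads these levels were 107 and 119.8 against 8.86 and 0.782. The NK1.1+ libraries differed several-fold in CPM but were close to each other per TCR read, and the groups did not overlap on either scale. The difference was 3.17 ± 1.28 with TMM (adjusted p = 0.334) and 4.55 ± 1.36 with TCR scaling (adjusted p = 0.0304). Pdcd1 (chromosome 1, 94038305 to 94052553), which encodes PD-1, stood at 2.56 and 8.83 reads per 1000 TCR reads in NK1.1+ ILTCk against 169 and 172 in PD1+ Tconv. Its difference was -6.67 ± 0.57 with TMM (adjusted p = 0.0725), -4.91 ± 1.42 with TCR scaling (adjusted p = 0.0244) and past the threshold in the fit of thymic-expressed genes (adjusted p = 0.0132). Both genes were gated, so their differences check the labels and are no finding. Cd4, also gated, stood at 13.9 and 6.00 against 21.0 and 1.62 CPM, and the groups overlapped in CPM.

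The chains of the TCR complex did not pass the test on either scale. The 7 listed genes had a median log2 fold change of -1.19 with TMM and -0.04 with TCR scaling, which 6 of them define. Cd247, the ζ chain gene and the only one outside the scaling set, stood at 28.1 and 35.9 reads per 1000 TCR reads in NK1.1+ ILTCk against 53.3 and 55.1 in PD1+ Tconv, without overlap (-0.76 ± 1.18, adjusted p = 0.642). Among the scaling genes, Cd3g ranged from 199 to 288 and Trbc1 from 73.4 to 93.7 per 1000 over the 4 libraries. Both were higher in NK1.1+ ILTCk without overlap per TCR read (0.39 and 0.21 with TCR scaling). Cd3e (166 and 154 against 216 and 111), Cd3d (189.6 and 195 against 116 and 211) and Trac (72.8 and 83.3 against 153 and 81.7) overlapped between groups. Trbc2, at 207 and 214 against 221 and 323, was lower without overlap.

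The coreceptor genes behaved unequally. Cd8a (the α chain, used in the gate) stood at 306 and 257 reads per 1000 TCR reads in NK1.1+ ILTCk against 313 and 269 in PD1+ Tconv. Cd8b1 (the β chain; chromosome 6, 71322788 to 71337494) stood at 12.02 and 35.3 against 162 and 293. The groups overlapped for Cd8a and lay apart for Cd8b1 in all 4 libraries. The difference of Cd8b1 was -4.86 ± 0.53 with TMM (adjusted p = 0.0725), and it fell in the fit of thymic-expressed genes (adjusted p = 0.0342), while it was -3.26 ± 1.38 with TCR scaling (adjusted p = 0.156). Cd8a differed by -1.09 ± 0.82 with TMM (adjusted p = 0.603) and -0.05 ± 1.33 with TCR scaling (adjusted p = 0.981). The difference between the 2 genes was not tested.

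The leading TCR variable segment took a smaller share of segment reads in both NK1.1+ ILTCk libraries than in either PD1+ Tconv library. The number of Trbv segments with at least 3 counts was 23 and 19 against 25 and 19, and of Trav segments 66 and 31 against 74 and 47. The most used β segment took 14.1% (Trbv13-2; exact 95% interval 13.2 to 15.0%) and 12.4% (Trbv13-1; 10.6 to 14.4%) of Trbv counts in NK1.1+ ILTCk replicates 1 and 2. In PD1+ Tconv it took 25.2% (Trbv13-1; 24.5 to 25.96%) and 36.3% (Trbv12-1; 34.7 to 38.0%). The leading segment differed between the replicates of each group. For α segments the leading shares were 4.97% (Trav7-1; 4.00 to 6.09%) and 8.59% (Trav14-2; 5.64 to 12.4%) against 27.8% (Trav5-1; 26.6 to 28.9%) and 18.6% (Trav14-1; 15.5 to 22.0%). These shares rest on 5631, 1235, 14312 and 3385 Trbv counts and on 1771, 291, 5893 and 571 Trav counts. The intervals cover counting error only, and near-identical segments can share reads.

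Promoters of 2 NK receptor genes that were high and 2 genes that were low in NK1.1+ ILTCk are shown, so that a reader can compare their sequence. RUNX factors, which act in CD8 T cells and NK cells, bind TGTGGT. Each sequence runs 5′ to 3′ on the gene's strand, from 250 bases before to 50 after the start (RefSeq, GRCm38.p6); capitals mark TGTGGT on either strand.
Klrb1c: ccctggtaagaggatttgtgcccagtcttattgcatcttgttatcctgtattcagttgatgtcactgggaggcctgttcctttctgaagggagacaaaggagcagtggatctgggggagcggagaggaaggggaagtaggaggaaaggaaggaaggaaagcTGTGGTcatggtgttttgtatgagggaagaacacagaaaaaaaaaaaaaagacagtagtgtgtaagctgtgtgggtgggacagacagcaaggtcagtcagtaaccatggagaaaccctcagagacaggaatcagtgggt
Ncr1: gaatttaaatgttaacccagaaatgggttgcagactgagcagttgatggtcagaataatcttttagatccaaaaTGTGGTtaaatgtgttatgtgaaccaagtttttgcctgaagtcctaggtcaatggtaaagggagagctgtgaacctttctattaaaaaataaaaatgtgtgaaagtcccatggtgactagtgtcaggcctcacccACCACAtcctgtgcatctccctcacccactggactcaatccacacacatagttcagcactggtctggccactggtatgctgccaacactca
Gzmk: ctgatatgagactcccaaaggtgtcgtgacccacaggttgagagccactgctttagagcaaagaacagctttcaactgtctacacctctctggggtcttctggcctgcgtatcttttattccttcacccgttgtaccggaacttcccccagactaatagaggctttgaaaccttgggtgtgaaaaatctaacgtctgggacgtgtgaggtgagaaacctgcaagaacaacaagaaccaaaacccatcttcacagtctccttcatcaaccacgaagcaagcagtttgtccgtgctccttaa
Pdcd1: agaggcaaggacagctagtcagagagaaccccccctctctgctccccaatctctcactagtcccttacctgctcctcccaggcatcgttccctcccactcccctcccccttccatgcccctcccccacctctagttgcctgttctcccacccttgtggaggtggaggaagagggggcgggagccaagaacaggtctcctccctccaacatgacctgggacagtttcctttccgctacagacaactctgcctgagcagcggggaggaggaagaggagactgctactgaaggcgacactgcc
The windows lie at chr6:128788592-128788891 (minus strand), chr7:4337465-4337764 (plus strand), chr13:113180916-113181215 (minus strand) and chr1:94052504-94052803 (minus strand). TGTGGT was found in 9 of 12 promoters of genes higher per TCR read in NK1.1+ ILTCk (Klrb1c, Klrb1a, Klra1, Klra5, Klra7, Ncr1, Gzmc, Gzmb, Sh2d1b1, Fcer1g, Tnfrsf9 and Xcl1). It was in 0 of 10 of genes low there (Pdcd1, Gzmk, Themis, Eomes, Slamf1, Bcl11b, Cd5, Ctla4, Nr4a2 and Ifng) and in 16.8% of 32851 promoters of the same length. GGTGTG, a T-box core, was in 3 of 12 and 2 of 10 (19.0% of all), and CAGGAAG, an ETS core, in 5 of 12 and 3 of 10 (13.3% of all), also read on both strands. Of the higher set, Klrb1a, Klra1, Klra5, Klra7, Gzmb, Tnfrsf9 and Xcl1 overlapped between groups in CPM. With TCR scaling the log2 fold changes of Gzmb, Tnfrsf9 and Xcl1 were 2.20 to 2.22, against a median of 1.84 over all genes. The sets hold the gated genes Klrb1c and Pdcd1 and leave out other genes that moved in the same directions. The sets were chosen after the values were seen, and the Klrb1 and Klra genes are paralogs with related promoters. These counts are therefore a description, and enrichment was not tested.

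Most NK receptor genes stood higher in NK1.1+ ILTCk relative to TCR reads. Of 26 tested NK receptor genes, 20 had non-overlapping groups with higher values in NK1.1+ ILTCk per TCR read (42.4% of all tested genes did), and 5 did so on both scales (20.7% of all). One member, Klrg1, was lower without overlap on both scales (3.62% of all). The median log2 fold change was 1.17 with TMM and 2.35 with TCR scaling, against medians of -0.04 and 1.84 for all genes. Klrb1c, which was gated and is counted in these shares, and Ncr1 passed with TCR scaling, and none passed with TMM. The NK1.1+ ILTCk libraries gave NK receptors nearly equally per TCR read, with a median ratio of replicate 2 to replicate 1 of 0.96, whereas the median over all tested genes was 5.08.

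Ncr1 (chromosome 7, 4337724 to 4345164), which encodes the activating receptor NKp46, stood at 13.1 and 12.5 reads per 1000 TCR reads in NK1.1+ ILTCk. In PD1+ Tconv it stood at 0.443 in replicate 1 and at 0 counts in replicate 2. The difference was 4.42 ± 1.51 with TMM (adjusted p = 0.274) and 5.76 ± 1.54 with TCR scaling (adjusted p = 0.0117). Klrb1b, an inhibitory relative of Klrb1c, stood at 8.20 and 6.15 against 0.658 and 0.135 per 1000, and Klrb1a at 42.8 and 31.1 against 5.57 and 0.917. In both, every NK1.1+ ILTCk library was above every PD1+ Tconv library per TCR read, and neither passed (adjusted p = 0.0866 and adjusted p = 0.0956 with TCR scaling). Klrg1, an inhibitory receptor gene of effector T cells and NK cells, went the other way, at 1.59 and 3.00 against 6.30 and 3.07.

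The Klra genes encode the Ly49 receptors, which bind MHC class I. Their copies are near-identical, so reads may be shared among them and single members are uncertain. Klra7 stood at 101 and 70.2 reads per 1000 TCR reads in NK1.1+ ILTCk against 13.4 and 0.323, Klra5 at 49.4 and 50.9 against 14.7 and 0.970, and Klra1 at 40.0 and 45.9 against 5.95 and 0.216. For these 3 genes, named after their values were seen, PD1+ Tconv replicate 1 held far more reads than replicate 2, and in CPM it lay between the NK1.1+ ILTCk libraries. Klrd1, the CD94 gene, stood at 90.7 and 106 against 36.3 and 17.3 per 1000, and Cd244 (the SLAM family receptor 2B4) at 139 and 123 against 59.3 and 16.8. Both overlapped in CPM, and their differences (0.60 ± 0.77 and 0.58 ± 1.05 with TMM) were within the spread. With TCR scaling the differences of Klrd1 and Cd244 were 1.88 and 1.78, near the median of 1.84 over all genes.

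**Figure D2:**
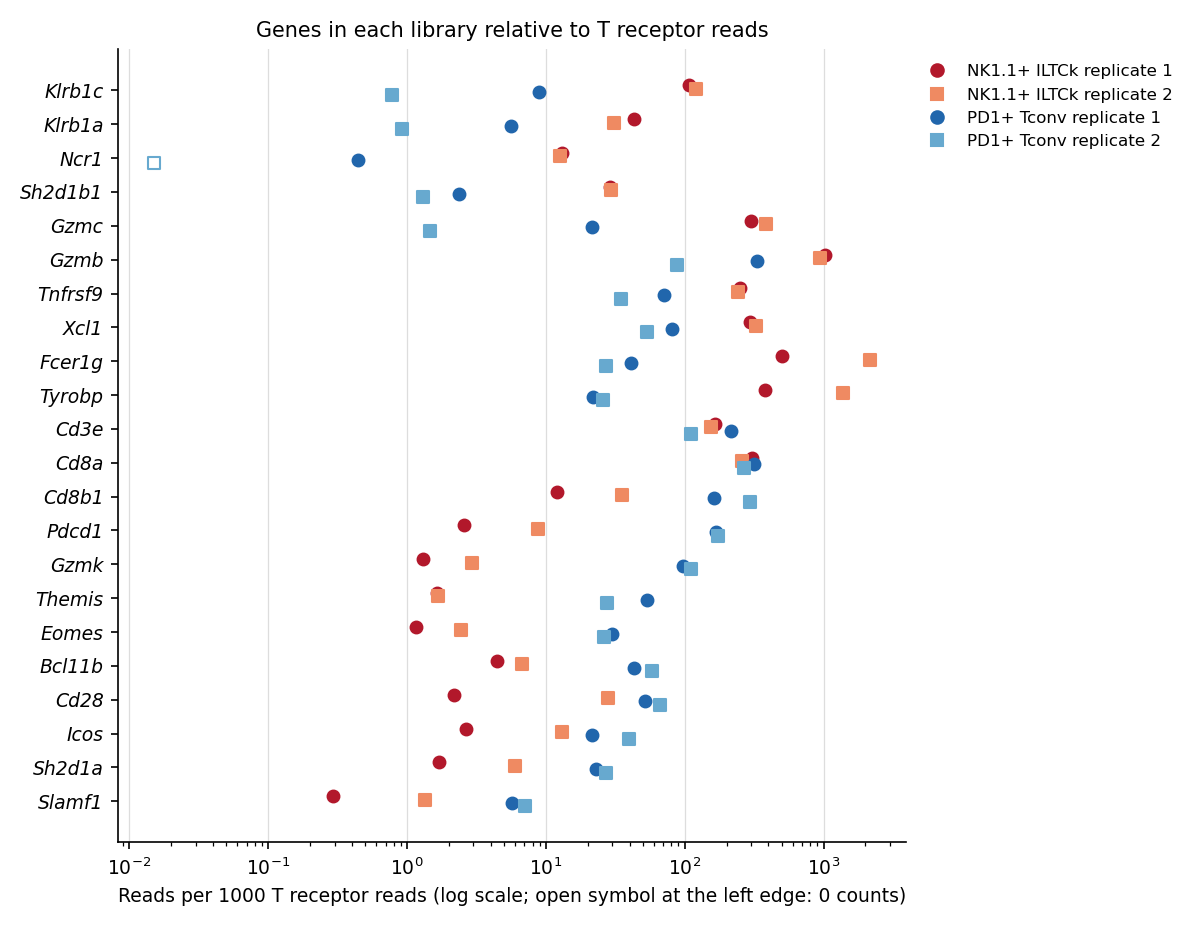
Reads of 22 genes per 1000 TCR reads (x axis, log scale) in each of the 4 libraries; circles are replicate 1, squares replicate 2, red and orange NK1.1+ ILTCk, blue shades PD1+ Tconv. Klrb1c, Ncr1, Sh2d1b1 and Gzmc lie at nearly equal, higher values in both NK1.1+ ILTCk libraries, Cd8a lies together in all 4, and Pdcd1, Gzmk, Themis and Eomes lie lower in NK1.1+ ILTCk.

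The ITAM adaptor genes were higher in NK1.1+ ILTCk together with macrophage genes. Fcer1g (chromosome 1, 171229572 to 171234365) stood at 1446 and 1229 CPM against 184 and 81.1, and Tyrobp (chromosome 7, 30413760 to 30417585) at 1090.5 and 789 against 97.2 and 77.6. The groups did not overlap for either gene. With TMM the differences were 3.34 ± 0.56 (adjusted p = 0.0942) and 3.43 ± 0.46 (adjusted p = 0.0779), and with TCR scaling 5.28 ± 1.65 (adjusted p = 0.0425) and 5.20 ± 1.61 (adjusted p = 0.0390). Tyrobp also rose in the fit of thymic-expressed genes (adjusted p = 0.0428), as did Lyn, a Src family kinase gene of myeloid and B cells (206 and 172 against 27.6 and 18.6 CPM; 3.03 ± 0.45, adjusted p = 0.0428). Beside them, Csf1r, the macrophage growth factor receptor gene, stood at 689.6 and 1495 against 13.9 and 20.4 CPM. The part of macrophage RNA in the adaptor levels was not tested. Per TCR read Fcer1g was 4.31 times and Tyrobp 3.67 times as high in NK1.1+ ILTCk replicate 2 as in replicate 1, Csf1r 10.98 times, and Klrb1c 1.12 times.

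Of 13 listed ITAM adaptors and partners, 5 passed higher with TCR scaling (3.47% of all genes did) and none lower. They were Fcer1g, Tyrobp, Ncr1 and the Fc receptor genes Fcgr3 (75.3 and 1227 against 2.03 and 4.45 per 1000) and Fcgr4 (77.0 and 401 against 0.415 and 6.31), which macrophages also use. Sh2d1b1, which encodes the SLAM adaptor EAT-2 of NK cells, stood at 28.9 and 29.5 against 2.37 and 1.29 per 1000 (3.99 ± 1.32 with TCR scaling, adjusted p = 0.0606). Sh2d1a, which encodes the SLAM adaptor SAP, stood at 1.69 and 5.99 against 23.0 and 27.0. The paired adaptors thus lay in opposite directions, each without overlap on both scales. Sh2d1a fell in the fit of thymic-expressed genes (-4.46 ± 0.46 with TMM over all genes, adjusted p = 0.0725; adjusted p = 0.0132 in that fit). Slamf1, one of the SLAM receptor genes whose signals pass through SAP, also fell there, at 0.849 and 0.767 against 25.3 and 21.3 CPM (-4.84 ± 0.53; adjusted p = 0.0132).

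Gzmk, Pdcd1 and Themis were the T cell genes lower in NK1.1+ ILTCk that passed with TCR scaling. Of the 24 lower calls on that scale, 16 were more than 10 times as high in PD1+ Tconv replicate 2 as in replicate 1, among them the gland genes Amy1, Prpmp5 and Crisp1, and 8 had 0 counts in both NK1.1+ ILTCk libraries. Gzmk (chromosome 13, 113171608 to 113225908), a granzyme gene of memory-like CD8 T cells, stood at 1.29 and 2.92 reads per 1000 TCR reads in NK1.1+ ILTCk against 96.6 and 110.1 in PD1+ Tconv. It was low in both NK1.1+ ILTCk libraries and the replicates of each group were close. Its difference was -7.13 ± 0.68 with TMM (adjusted p = 0.0725) and -5.63 ± 1.44 with TCR scaling (adjusted p = 0.00757). Themis (chromosome 10, 28668360 to 28883818), a signalling protein gene of the T lineage, stood at 1.63 and 1.66 against 53.5 and 27.4 per 1000 (-4.62 ± 1.34, adjusted p = 0.0246).

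Over all tested genes, 654 (3.62%) were lower in NK1.1+ ILTCk without overlap on both scales. Of the 12 coreceptor and T cell surface genes, 8 were among them, none was higher without overlap on both scales, and the median was -2.70 with TMM and -1.20 with TCR scaling. DESeq2 called 8 of the 12 lower. Cd28, the main costimulatory receptor gene, stood at 6.35 and 15.9 CPM against 229 and 198. The ICOS gene Icos, a relative of Cd28, stood at 7.64 and 7.45 against 95.0 and 119. Both fell in the fit of thymic-expressed genes (adjusted p = 0.0428 for each), with differences of -4.26 ± 0.56 and -3.83 ± 0.48 over all genes (adjusted p = 0.0779 for each). Per TCR read Cd28 was 12.7 times as high in NK1.1+ ILTCk replicate 2 as in replicate 1, so its distance between the groups narrowed to 27.8 against 51.3 per 1000 at the nearest libraries. Cd5, a brake on TCR signals, stood at 6.48 and 1.67 against 92.1 and 46.4 CPM (-4.09 ± 0.74, adjusted p = 0.106). Thy1, a general T cell surface gene, stood at 16.5 and 6.14 against 106 and 170.2 CPM (-3.61 ± 0.59, adjusted p = 0.0875).

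Genes of TCR signalling were not uniform. The kinase gene Lck, whose product binds the coreceptors, stood at 239 and 279.7 reads per 1000 TCR reads in NK1.1+ ILTCk against 241 and 252, and Zap70, the kinase bound to the ζ chain, at 26.9 and 36.6 against 45.6 and 34.8. Both overlapped per TCR read and were lower without overlap in CPM. The scaffold gene Lat stood at 19.9 and 34.4 against 69.5 and 105, lower without overlap (-1.69 ± 1.23 with TCR scaling, adjusted p = 0.324). Syk, the kinase that ITAM adaptors use in myeloid and NK cells, stood at 15.4 and 224 against 0.843 and 1.48, and rose with TCR scaling (6.69 ± 1.501, adjusted p = 0.00143). Its value in NK1.1+ ILTCk replicate 2 was 14.5 times that in replicate 1, where the median ratio of the 20 macrophage genes was 14.7. The median ratio of interferon-stimulated genes was 13.9. The part of macrophage RNA in the Syk level was not tested. Of 21 signalling genes, 9 were lower and 3 higher without overlap on both scales (3.62% and 20.7% of all genes). With TCR scaling Themis passed lower and Syk higher.

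None of the 29 listed lineage transcription factor genes passed with edgeR on either scale. Eomes (chromosome 9, 118478212 to 118486132), a T-box factor gene of memory CD8 T cells and NK cells, stood at 1.16 and 2.44 reads per 1000 TCR reads in NK1.1+ ILTCk against 30.1 and 26.2 in PD1+ Tconv. Bcl11b, which encodes a factor that keeps T cell identity, stood at 4.41 and 6.70 against 43.0 and 58.0. Neither gene overlapped between groups. Their differences were -5.48 ± 0.61 and -4.46 ± 0.71 with TMM (adjusted p = 0.0725 and adjusted p = 0.0875). Zeb2, a factor gene of terminal effector and NK cells that macrophages also express, stood at 13.8 and 86.3 against 2.50 and 3.94 (3.96 ± 1.29 with TCR scaling, adjusted p = 0.0561). Zbtb16, which encodes PLZF, a factor of innate-like T cells, stood at 0.832 and 5.91 against 0.200 and 0.0539. Of 29 listed factors 4 were higher and 4 lower without overlap on both scales (20.7% and 3.62% of all genes), and the median was -0.74 with TMM.

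Granule genes divided by member. Gzmc (chromosome 14, 56231441 to 56234656), a granzyme gene of strongly activated killer cells, stood at 298 and 385 reads per 1000 TCR reads in NK1.1+ ILTCk against 21.3 and 1.46 in PD1+ Tconv (4.91 ± 1.49, adjusted p = 0.0349 with TCR scaling; 3.45 ± 1.34, adjusted p = 0.318 with TMM). Gzmb, whose product triggers death of the target cell, stood at 1025 and 938 against 332 and 88.4 per 1000. It overlapped in CPM, at 2973 and 537 against 1481 and 266 (1.01 ± 1.02 with TMM, adjusted p = 0.716). With TCR scaling the difference of Gzmb was 2.22, against a median of 1.84 over all genes. Prf1, the pore-forming perforin gene, was on the other side, at 11.6 and 15.4 against 43.4 and 18.0 per 1000 (-2.54 ± 0.82 with TMM, adjusted p = 0.254). Rab27a, which encodes a GTPase needed for granule release, stood at 10.3 and 7.54 against 69.9 and 53.5 CPM and fell in the fit of thymic-expressed genes (-2.79 ± 0.42, adjusted p = 0.0428). Lamp1, a lysosome membrane gene found in macrophages as well, was higher at 565 and 1116 against 221 and 289.9 CPM (1.72 ± 0.48, adjusted p = 0.211). The 17 tested granule genes had 5 lower and 2 higher without overlap on both scales (3.62% and 20.7% of all genes), and a median of -0.49 with TMM and 0.89 with TCR scaling. Gzmc and Gzmb were named after their values were seen.

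Inhibitory receptor and exhaustion genes, a list that holds the gated Pdcd1, had a median of -0.88 with TMM and 0.30 with TCR scaling. Of 19 tested members, 7 were lower and 0 higher without overlap on both scales, against 3.62% and 20.7% of all genes. Per TCR read alone 7 were higher and 7 lower without overlap. Ctla4, an inhibitory receptor gene that competes with Cd28, stood at 2.71 and 5.20 reads per 1000 TCR reads against 24.4 and 22.2 (-4.02 ± 0.65 with TMM, adjusted p = 0.0875). Nrn1, a surface gene of exhausted and regulatory T cells, stood at 0.0462 and 0.315 against 3.53 and 4.45. Tox, a factor gene of exhausted T cells, stood at 15.1 and 11.2 against 66.5 and 55.7 (-3.20 ± 1.00 with TMM, adjusted p = 0.245). All 3 were low in both NK1.1+ ILTCk libraries. Tnfrsf9, which encodes the costimulator 4-1BB, stood at 251 and 239.7 against 71.2 and 34.6 per 1000, and overlapped in CPM (1.04 ± 0.84, adjusted p = 0.631). Its difference with TCR scaling was 2.21, against a median of 1.84 over all genes.

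Genes induced by TCR signals differed in direction. Nr4a2 and Nr4a3, nuclear receptor genes switched on by antigen, stood at 31.6 and 35.7 against 412 and 194 CPM and at 10.3 and 8.62 against 74.9 and 97.4 CPM. Both were lower in CPM in every NK1.1+ ILTCk library. With TCR scaling their differences were -1.10 and -1.41 and did not pass (adjusted p = 0.495 and adjusted p = 0.385). Nr4a2 fell in the fit of thymic-expressed genes (-3.17 ± 0.48, adjusted p = 0.0428), and Nr4a3, outside that fit, had a difference of -3.19 ± 0.39 over all genes (adjusted p = 0.0779). Nr4a1 stood at 83.1 and 406 against 251 and 90.1 CPM, with overlap, and was 24.8 times as high per TCR read in NK1.1+ ILTCk replicate 2 as in replicate 1. Egr2, an early response factor gene also active in macrophages, was higher, at 41.1 and 107 against 19.4 and 12.8 CPM, and passed with TCR scaling (4.54 ± 1.36, adjusted p = 0.0312). Smad7, which encodes a feedback inhibitor of TGF-β signalling, stood at 6.35 and 4.74 against 72.0 and 37.6 CPM and fell in the fit of thymic-expressed genes (-3.30 ± 0.52, adjusted p = 0.0428).

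Among cytokine genes, Ifng, the interferon-γ gene, stood at 8.27 and 5.73 CPM in NK1.1+ ILTCk against 76.3 and 62.6 (-3.31 ± 0.44, adjusted p = 0.0779). Xcl1, a chemokine gene whose product draws cross-presenting dendritic cells, stood at 294 and 326 reads per 1000 TCR reads against 81.1 and 53.5, with overlap in CPM (0.99 ± 0.78, adjusted p = 0.617). The chemokine gene Ccl5 stood at 551 and 249.5 against 426 and 643 per 1000, overlapping on that scale. Ifng thus lay apart in all libraries, and Xcl1 only relative to TCR reads. With TCR scaling the difference of Xcl1 was 2.20, against a median of 1.84 over all genes. Il10, which macrophages also make, rose with TCR scaling (1.68 and 72.9 against 0.951 and 0.728 per 1000; 5.46 ± 1.42, adjusted p = 0.00867), with replicate 2 of NK1.1+ ILTCk far above replicate 1. The receptor gene Il4ra stood at 54.6 and 1066 against 30.2 and 16.5 per 1000 (4.58 ± 1.51, adjusted p = 0.0589).

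No homing receptor gene passed with edgeR on either scale. Ccr7, the lymph node homing receptor gene, stood at 1.91 and 5.12 reads per 1000 TCR reads against 19.1 and 7.68, and Cxcr5, the follicle homing receptor gene, at 1.05 and 0.788 against 9.95 and 5.18. Both lay apart between groups (-3.68 ± 0.80 and -4.10 ± 1.05 with TMM, adjusted p = 0.139 and adjusted p = 0.184). Cxcr6, a receptor gene of tissue T cells, overlapped per TCR read at 128 and 133 against 255 and 132 per 1000. Cx3cr1, the fractalkine receptor gene of effector lymphocytes and macrophages, stood at 53.4 and 29.6 against 4.07 and 5.63. Of 19 homing genes, 4 were lower and 2 higher without overlap on both scales (3.62% and 20.7% of all genes). Itgae, which encodes the αE integrin that holds lymphocytes in epithelium, stood at 330.3 and 225 against 159.5 and 35.7 per 1000, and Itga4, the α4 integrin gene, at 9.85 and 20.7 against 69.9 and 38.6. Itgae overlapped in CPM (0.41 ± 1.11) and Itga4 did not (-3.40 ± 0.69, adjusted p = 0.125). With TCR scaling the difference of Itgae was 1.51, below the median of 1.84 over all genes.

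With edgeR over all tested genes, several groups had no member past the threshold on either scale. They were survival and death genes (16 tested, median -0.06 with TMM), GIMAP genes (8, -1.19), cell cycle genes (30, 0.28) and homing receptors (19, -1.11). The others were residency and adhesion genes (19, -0.69), TNF receptor costimulators (8, -0.71) and cytokine receptors (24, -0.58). In the fit of thymic-expressed genes 1 residency and adhesion gene was called lower, and none of the other groups had a call. Bcl2, the survival gene, stood at 103 and 93.0 reads per 1000 TCR reads against 158 and 165, without overlap (-1.77 ± 0.78 with TMM, adjusted p = 0.367). GIMAP genes encode small GTPases of lymphocytes, and had a median of -0.03 with TCR scaling, close to that of the TCR chains. Of 28 interferon-stimulated genes 0 were higher and 0 lower without overlap on both scales (20.7% and 3.62% of all genes), and their median ratio of replicate 2 to replicate 1 in NK1.1+ ILTCk was 13.9 per TCR read. Trdc, the δ chain constant gene, fell in the fit of thymic-expressed genes, at 2.32 and 1.35 against 29.1 and 19.3 CPM (-3.71 ± 0.59, adjusted p = 0.0428), although γδ T cells were gated out of both groups. The remaining lower calls in that fit were Rock1, a cytoskeletal kinase gene (22.2 and 12.3 against 162 and 119.9 CPM), the Golgi tether gene Trip11 (9.97 and 7.76 against 71.3 and 45.9), Fam169b (8.31 and 7.63 against 113 and 95.7), Trim12c (5.32 and 5.78 against 44.0 and 46.6) and the predicted gene Gm8369.

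**Figure D3:**
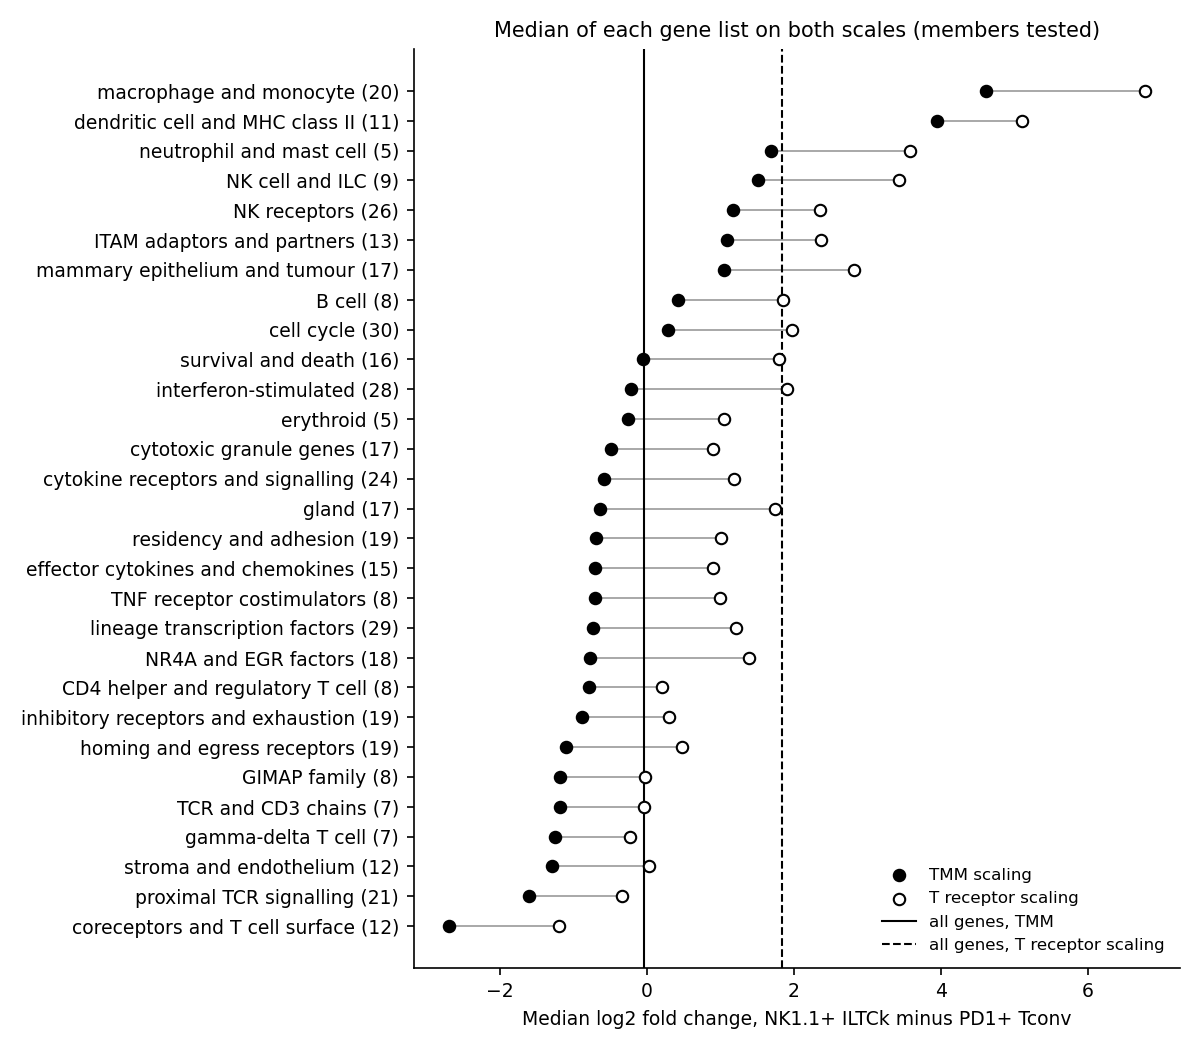
Median log2 fold change (x axis, NK1.1+ ILTCk minus PD1+ Tconv) of each gene list (y axis, members tested in parentheses) with TMM scaling (filled) and TCR scaling (open). Vertical lines mark the medians of all genes, -0.04 and 1.84; macrophage and MHC class II lists lie farthest to the right and coreceptor and T cell surface genes farthest to the left.

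Macrophage genes had the highest median of the 29 lists on both scales, 4.61 with TMM and 6.77 with TCR scaling. Of 20 listed macrophage and monocyte genes 19 (all but Cd14) passed higher with TCR scaling (3.47% of all genes), 19 with DESeq2 (3.66%) and 0 with edgeR and TMM (0.0%), and 19 were higher without overlap on both scales (20.7%). Retnla, a gene of alternatively activated macrophages, stood at 826 and 3454 CPM in NK1.1+ ILTCk against 1.66 and 4.86 in PD1+ Tconv (9.38 ± 1.15, adjusted p = 0.0779 with TMM, and 11.64 ± 2.27, adjusted p = 0.000172 with TCR scaling). The complement gene C1qa stood at 708 and 1924 against 10.99 and 56.4, Adgre1 (F4/80) at 307 and 588 against 3.76 and 13.4, the mannose receptor gene Mrc1 at 47.9 and 271 against 1.59 and 0.0811, and Spi1, the PU.1 factor gene, at 72.7 and 176 against 2.64 and 7.62. For these genes both NK1.1+ ILTCk libraries were high, replicate 2 more so. Folr2, Fcna, Cd209f, Nxpe5, Ccl8, Ms4a8a and Mgl2, mostly genes of resident macrophages, and the gland gene Scgb2b26 had values 24.1 to 1131 times as high per TCR read in replicate 2 as in replicate 1 of NK1.1+ ILTCk. They had log2 fold changes of 8.11 to 10.03 with TMM, and Ear2, an eosinophil-type ribonuclease gene found in macrophages, one of 8.39 with a ratio of 3.66.

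Antigen presentation genes were also higher. Cd74, the MHC class II invariant chain gene, stood at 5456 and 2907 CPM against 187 and 289, and H2-Aa, an MHC class II α chain gene, at 3622 and 2757 against 72.3 and 343. The chain genes H2-Ab1 (2988 and 1842 against 66.4 and 186) and H2-Eb1 (2472 and 1753 against 59.0 and 204) were alike. All 4 passed with TCR scaling (adjusted p = 0.0347 to 0.0488) and did not pass with TMM (adjusted p = 0.106 to 0.139). Per TCR read they were 2.70 to 3.86 times as high in NK1.1+ ILTCk replicate 2 as in replicate 1. Other genes that the thymic libraries hold and that were highest in NK1.1+ ILTCk were Nfam1, an ITAM receptor gene of B and myeloid cells (58.4 and 169 against 1.78 and 2.43 CPM), Fcgrt, Selenop, Lyz2, Tmem86a and Naaa, with log2 fold changes of 3.70 to 5.76. The part of macrophages and dendritic cells in these levels was not tested.

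Gland genes differed by library. The saliva gene Bpifa2 stood at 260889 CPM in PD1+ Tconv replicate 2 and at 142 to 1146 in the other 3 libraries, and Amy1, a salivary amylase gene, at 16661 and at 10.2 to 137. Smr3a and Crisp1 were likewise high in PD1+ Tconv replicate 2 alone (3985 and 1888 CPM). Mucl2, a mucin-like gland gene, stood at 48181 CPM in NK1.1+ ILTCk replicate 2 and at 7.04 to 683 in the others. Replicate 2 of each group thus held gland RNA of a different composition. Of 17 mammary epithelium and tumour genes 7 were higher and 0 lower without overlap on both scales (20.7% and 3.62% of all genes), and none passed with edgeR on either scale. Csn3, the κ-casein gene of mammary epithelium, stood at 4227 and 4152 against 1567 and 425 CPM. Ttn, the muscle titin gene, stood at 4.87 and 3.61 against 151 and 87.3 CPM. Of the other marker lists, 5 of 9 NK cell and innate lymphoid genes, 3 of 5 neutrophil and mast cell genes, 2 of 8 B cell genes, 1 of 12 stroma and endothelium genes and 1 of 5 erythroid genes were higher without overlap on both scales, where 20.7% of all genes were. Lower on both were 2 of 7 γδ T cell, 3 of 8 CD4 T cell, 2 of 12 stroma and 1 of 9 NK cell genes, where 3.62% of all genes were.

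The agreement of the NK1.1+ ILTCk libraries per TCR read was used to describe which of the higher genes moved with the TCR reads, a criterion set after the data were examined. Of 3747 genes that were higher without overlap on both scales (20.7%), 91 (2.43%) agreed within 2-fold between these libraries, against 11.6% of all tested genes and 43.7% of the 654 lower genes. These shares follow in part from the selection. Genes that agreed were lower in CPM in replicate 2 than in replicate 1, which made lying above PD1+ Tconv in CPM harder. Lying below PD1+ Tconv per TCR read in replicate 2 in turn favoured low ratios. The median ratio of replicate 2 to replicate 1 was 6.32 for the higher genes and 1.36 for the lower genes. With a mean logCPM of at least 4 there were 16 higher genes that agreed within 2-fold. They included the killer cell genes Klrb1c, Gzmc and Sh2d1b1, but also Mpeg1, a pore protein gene of macrophages (94.6 and 174 against 2.89 and 3.85 per 1000), and Tmem119 (34.1 and 55.0 against 0.422 and 0.836). Cd72, an inhibitory receptor gene of B cells and NK cells, stood at 71.2 and 72.8 against 6.94 and 2.97, and Ltf, the lactoferrin gene of glands, milk and neutrophils, at 254 and 239 against 10.6 and 16.8. Near-equal values per TCR read were thus seen for killer genes and for some genes of other cells, and the criterion does not assign a transcript to a cell.

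**Figure D4:**
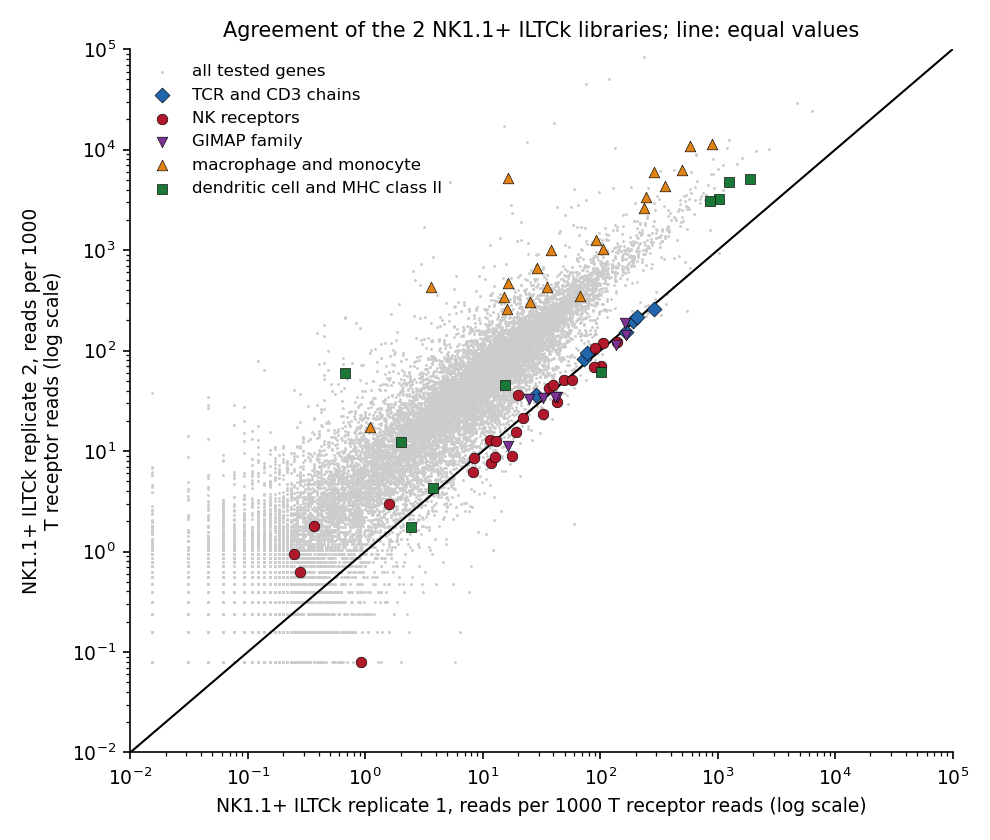
Reads per 1000 TCR reads in NK1.1+ ILTCk replicate 1 (x axis) and replicate 2 (y axis), both log scales, for tested genes with counts in both libraries; coloured points are members of 5 gene lists and the line marks equal values. TCR chains, NK receptors and GIMAP genes lie near the line (median ratios 1.03, 0.96 and 0.85), the bulk of genes lies above it (5.08) and macrophage genes lie farther above (14.7).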

How the data were processed

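The values were whole-number read counts per gene, as the authors deposited them. That they were not normalised was judged from the values, whole numbers with a different total in each library. Which aligner, counter and gene models were used is not given in the sources used here. The build mm10 and the tool DESeq are named, per the submitters' processing notes. The single-cell libraries were not analysed here, and the thymic counts served only to choose genes with at least 10 CPM there.

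Genes were kept with filterByExpr, scaled with TMM, and tested two-sided with edgeR 4.0.16 (glmQLFit, robust; R 4.3.3) over all 6 libraries of the table, at an adjusted p under 0.05. The alternatives were scaling to 6 TCR genes, TMM without the marker genes of other cells, RLE and upper-quartile scaling, DESeq2 1.42.0, limma-voom 3.58.1, no filter, at least 50 counts in 2 libraries, thymic-expressed genes, the replicate number as a block, the 4 libraries alone, and each library left out. Scripts were tested on simulated data. The comparison and the gene lists were chosen with earlier results of these data known.

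Named genes were the sort and TCR genes with Fcer1g and Tyrobp, up to 5 members per list with the smallest p, and up to 10 per direction with the largest change at a mean logCPM of at least 4 and no overlap on both scales, over all and over thymic-expressed genes. Receptor and immunoglobulin segments and predicted, Rik, mitochondrial and ribosomal protein genes were left out of the last part of that rule. Genes outside it were Klrb1a, Klra1, Klra5, Klra7, Klrd1, Cd244, Sh2d1b1, Slamf1, Lck, Zap70, Gzmc, Gzmb, Nr4a1, Zbtb16, Xcl1, Ccl5, Cxcr6, Cx3cr1, Itgae, Lyn, C1qa, Mucl2 and the other genes of the thymic-expressed calls and of the agreement criterion, named after their values were seen. Coordinates came from GENCODE M21 on GRCm38, where 47653 symbols were found, and promoters from RefSeq. Variable-segment intervals are exact (Clopper-Pearson) at 95%.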

Additional observations from a re-analysis of the deposited data

How the results depend on the processing

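Against 0 higher and 0 lower calls with edgeR and TMM, counts higher and lower were 628 and 24 with TCR scaling, 663 and 605 with DESeq2, 2269 and 43 with DESeq2 and TCR scaling, 682 and 567 with no filter, 2 and 15 over thymic-expressed genes, and 0 and 3 with limma-voom; the cause was not tested. Other scalings, at least 50 counts and the 4 libraries alone gave 0 and 0. Without 1 library each, TMM gave 0 to 33 higher and 0 to 2 lower. The same numbers name 2 pairs, which the labels do not say share a batch; deviations of NK1.1+ ILTCk and PD1+ Tconv correlated at 0.41, and the other pairs of groups at 0.39 and 0.36. The replicate block gave 432 and 323 calls with TMM and 887 and 26 with TCR scaling. Chosen after seeing the data were the latter, TCR scaling without a library (9535 and 38 without NK1.1+ ILTCk replicate 1, otherwise 0), thymic-expressed genes without a library (158 and 486 without NK1.1+ ILTCk replicate 1, otherwise 0) and TMM without replicate 2 of both groups (0 and 0).

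Of 1760 alternative values of 113 named genes, 1360 kept direction and side of the threshold, 372 kept direction and passed it, and 28 in 14 genes changed sign. Log2 fold changes that changed sign with TCR scaling, with edgeR and with DESeq2, were 1.53 and 1.53 for Cd4, 0.23 and 0.23 for Cd3d, 0.39 and 0.39 for Cd3g, 0.21 and 0.21 for Trbc1 and 0.073 and 0.073 for Lck; the cause was not tested. Cd4 was at 0.25 with limma-voom and 0.25 with the replicate block. Leaving out 1 library gave ranges of -1.10 to 2.63 for Cd4, -2.40 to 0.085 for Cd3g, -0.70 to 2.74 for Gzmb, -0.24 to 4.90 for Klra5, -0.82 to 1.66 for Klrd1, -1.17 to 2.24 for Cd244, -0.62 to 2.07 for Tnfrsf9, -0.48 to 1.71 for Xcl1, -1.67 to 2.36 for Itgae, -1.03 to 1.46 for Nr4a1 and -0.043 to 3.15 for Cx3cr1. Values per TCR read in NK1.1+ ILTCk replicate 2 rest on 12684 TCR counts, at 572 CPM against 2900 in replicate 1. Over all tested genes the median ratio of replicate 2 to replicate 1 per TCR read was 5.08.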
